A study of Homo sapiens with 8 samples.

Results

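The genes described here are 30 targets of the sterol regulatory element binding proteins (SREBPs), found by symbol among the 26485 gene symbols of each deposited expression table. They fall into a sterol branch of 20 genes and a fatty acid branch of 10 genes. Membership follows textbook assignment of genes to the SREBP pathway, and no SREBP binding was measured in these samples. The members were chosen with earlier results of these data known. Shares of members set beside all genes are therefore descriptions and no test of the set.

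RNA was sequenced from BEAS-2B cells, a human bronchial epithelial line immortalised with viral genes, 24 h after stimulation. The cells had received either a control siRNA or an siRNA to LY96, and were moved to BEBM, a basal medium for bronchial epithelium, 24 h before they were stimulated with phosphate-buffered saline (PBS) or with house dust mite (HDM) extract. LY96 encodes MD-2, the partner of TLR4 in the recognition of bacterial lipopolysaccharide. There were 4 groups: control siRNA with PBS (1 library), control siRNA with HDM (3 libraries), LY96 siRNA with PBS (1 library) and LY96 siRNA with HDM (3 libraries). All of the cells had been transfected with an siRNA, so no untransfected baseline is part of the comparison. Separate cultures are not stated for the libraries of a group, so p-values refer to the spread among these libraries only, and that spread may be technical.

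Values are read abundances scaled to transcript length and library size (FPKM), a unit read from the values themselves because the tables do not name it. LY96 was listed at 0 FPKM in all 8 libraries, so the siRNA labels could not be checked on the targeted gene. The FPKM total per library ran from 329777 to 340328, and 17220 to 18143 genes were above 0. The number of reads behind a value is not given in the sources used here. All 7 epithelial markers examined were measured, with a summed level of 1025 to 1157 FPKM per library. The markers of leukocytes summed to 3.44 to 5.47 FPKM and those of fibroblasts to 5.82 to 10.3 FPKM. Most of these sums came from CD14, at 3.44 to 5.39 FPKM, and from COL1A1, at 5.72 to 10.2 FPKM. PTPRC, CD3E, LUM and DCN of the same lists were at 0 in all 8 libraries. The markers of endothelium and of adipocytes summed to at most 0.379 FPKM, and all 3 hepatocyte markers were at 0. Ribosomal RNA genes took 0.475 to 0.824% of the total in the control HDM libraries, 1.03 to 1.31% in the LY96 HDM libraries, 0.770% in control PBS and 0.826% in LY96 PBS. This share did not overlap between the siRNAs under HDM, and its part in the siRNA differences below was not tested.

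SREBPs are made as precursors anchored in the membrane of the endoplasmic reticulum, where SCAP escorts them and INSIG proteins hold the complex back when sterols are plentiful. When membrane sterol falls, the complex moves to the Golgi, proteases release the amino-terminal part, and this part enters the nucleus and binds sterol regulatory elements, usually beside sites for NF-Y and Sp1. The product of SREBF2 acts mainly on genes of cholesterol synthesis, and the main product of SREBF1 on genes of fatty acid synthesis and desaturation. In airway epithelium the pathway supplies membrane lipid.

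RefSeq promoter windows, 300 bases long and reaching from 250 bases before to 50 bases after a transcription start (GRCh38.p14), were held for 26 of the 30 members. They were searched on both strands for TCACNCCAC, a core of the sterol regulatory element, for CCAAT, the NF-Y site, and for GGGCGG, the Sp1 site. The core was found in 1 member, SREBF2, and in 1.39% of all 27305 genes with a window. A looser form, TCACNCNAC, which includes every match of the core and was added after that search, was found in 4 members, FDPS, HSD17B7, SREBF2 and FADS2, and in 3.13% of all genes. CCAAT was present in 16 of 17 sterol members and 5 of 9 fatty acid members with a window, beside 39.7% of all genes. GGGCGG was present in 16 of 17 sterol members and 8 of 9 fatty acid members, beside 48.3% of all genes. A match describes letters in a window and is no evidence of binding.

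The 4 windows with the looser element are shown around their match, so that the letters matched can be read in place. Capitals mark TCACNCNAC and the CCAAT site on either strand (CCAAT or ATTGG), and positions count back from the start that each window belongs to. The FDPS stretch lies at chr1:155308666-155308747 (plus strand, 200 to 119 bases before the start) and the HSD17B7 stretch at chr1:162790544-162790692 (plus strand, 158 to 10 bases before the start), both outside annotated exons. The FADS2 stretch at chr11:61815973-61816001 and the SREBF2 stretch at chr22:41832962-41832990 (both plus strand) overlap an annotated exon and are kept to 29 bases.
FDPS: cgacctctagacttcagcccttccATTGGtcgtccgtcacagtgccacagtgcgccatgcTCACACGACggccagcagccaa
HSD17B7: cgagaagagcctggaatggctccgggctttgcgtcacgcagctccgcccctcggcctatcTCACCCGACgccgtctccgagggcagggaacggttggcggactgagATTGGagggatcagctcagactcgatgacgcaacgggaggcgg
FADS2: cctccagtctTCACACGACgcaggggtcc
SREBF2: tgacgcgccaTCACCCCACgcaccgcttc

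The promoters of 3 further members are shown because the results turn on these genes: INSIG1 and HMGCS1, with the largest siRNA and HDM differences of the sterol branch, and MSMO1, the member that fell with LY96 siRNA. The INSIG1 stretch is chr7:155297628-155297775 (plus strand, 250 to 103 bases before the start), the HMGCS1 stretch chr5:43313513-43313662 (minus strand, 250 to 101 bases before the start) and the MSMO1 stretch chr4:165327443-165327622 (plus strand, 226 to 47 bases before the start). All 3 lie outside annotated exons, and capitals again mark CCAAT or ATTGG.
INSIG1: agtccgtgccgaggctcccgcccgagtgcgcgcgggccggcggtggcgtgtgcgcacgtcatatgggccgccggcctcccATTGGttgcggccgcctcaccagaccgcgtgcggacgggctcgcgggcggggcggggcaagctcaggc
HMGCS1: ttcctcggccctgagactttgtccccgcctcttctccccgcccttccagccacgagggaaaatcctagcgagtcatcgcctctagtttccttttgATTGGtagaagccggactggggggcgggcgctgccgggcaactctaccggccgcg
MSMO1: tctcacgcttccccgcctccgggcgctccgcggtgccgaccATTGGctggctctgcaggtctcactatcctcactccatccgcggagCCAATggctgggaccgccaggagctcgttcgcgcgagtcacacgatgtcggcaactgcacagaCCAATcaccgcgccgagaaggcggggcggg
The stretch of MSMO1 holds 3 CCAAT sites, those of INSIG1 and HMGCS1 hold 1 each, and none of the 3 holds TCACNCNAC. These counts cover the printed letters only. Past the printed end, the same windows hold a further site 34 bases before the start of MSMO1 and 100 bases before that of HMGCS1. HMGCS1 also has a window at another start, which is not shown.

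All 30 members were expressed, with mean levels over the 8 libraries from 11.5 FPKM for SC5D, the sterol-C5-desaturase, to 192 FPKM for SCD, the stearoyl-CoA desaturase. Setting levels beside each other between genes assumes that the values are scaled by transcript length, as FPKM would be. After SCD came FDPS, the farnesyl diphosphate synthase, at 173 FPKM, FADS2, the delta-6 desaturase, at 152 FPKM, and FDFT1, the squalene synthase, at 140.0 FPKM. The factors themselves differed in level, with SREBF2 at 77.3 FPKM and SREBF1 at 23.7 FPKM. The lowest levels beside SC5D were those of ACACA, the acetyl-CoA carboxylase that commits carbon to fatty acids, at 16.3 FPKM, LPIN1, a phosphatidate phosphatase, at 17.0 FPKM, and HSD17B7, a ketosteroid reductase of the sterol pathway, at 17.9 FPKM. Summed over members, the sterol branch held 1282 to 1478 FPKM per library and the fatty acid branch 623 to 782 FPKM. For both branches the lowest of the 8 libraries was control siRNA with PBS and the highest was replicate 3 of LY96 siRNA with HDM.

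**Figure D1:**
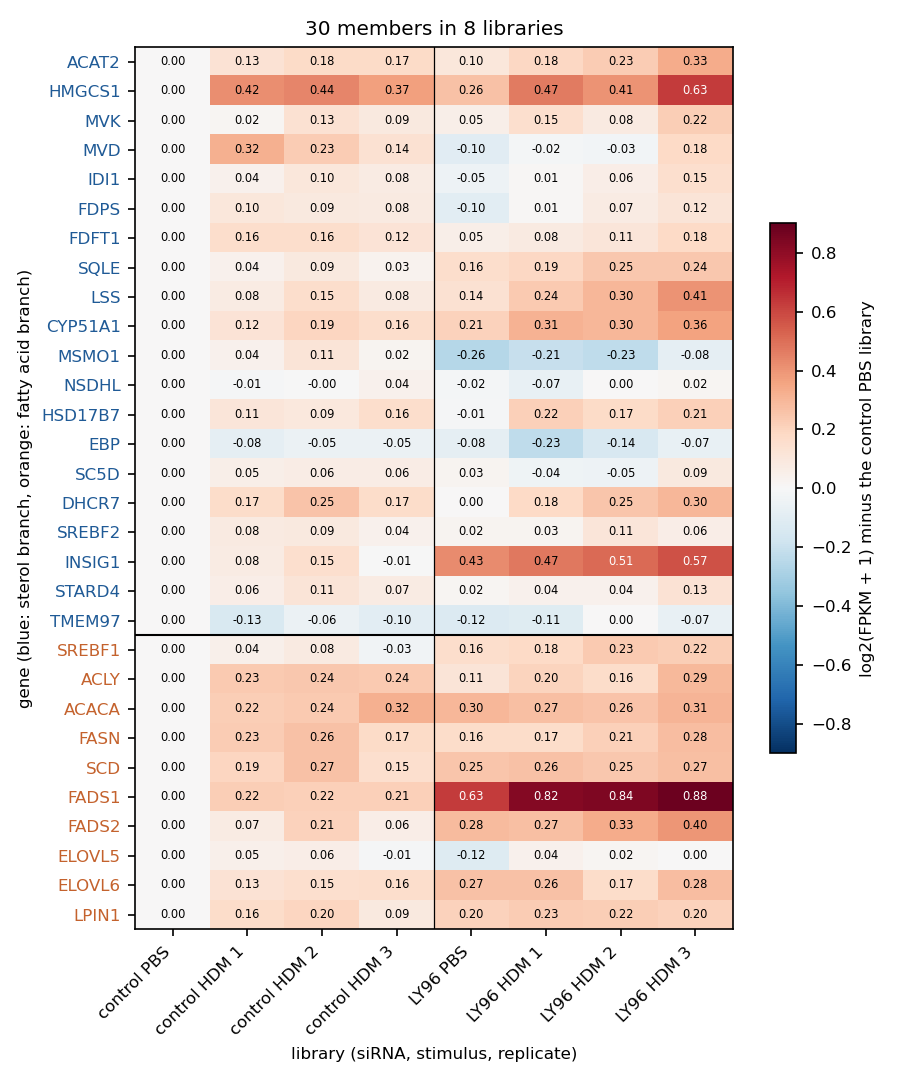
Level of each member in each of the 8 libraries as log2(FPKM + 1) minus the value of the control PBS library, with sterol genes above and fatty acid genes below the line, and the siRNAs to either side of the vertical line. FADS1 reached 0.88 in replicate 3 of LY96 siRNA with HDM, and the row of MSMO1 is negative in all 4 LY96 libraries.

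The first comparison asks what the LY96 siRNA changed in cells that had received HDM, with 3 libraries per siRNA. Of the sterol branch, 4 of 20 members rose and 1 fell, and of the fatty acid branch 3 of 10 rose and 0 fell (limma on log2(FPKM + 1), Benjamini-Hochberg adjusted p under 0.05 over 12598 genes tested). FADS1, the delta-5 desaturase of polyunsaturated fatty acids, rose most, followed by INSIG1, the retention factor of the SREBP complex. At an unadjusted p under 0.05 the sterol branch held 5 genes higher and 2 lower and the fatty acid branch 4 higher and 0 lower, beside 12.8% of all genes higher and 18.4% lower. Over all genes tested 6.68% rose and 8.92% fell by the same rule of adjusted p. The median log2 difference was 0.02 in the sterol branch and 0.06 in the fatty acid branch, beside -0.02 over all genes tested. In a bulk sample a change in the number of cells of one kind and a change in RNA per cell cannot be told apart. Without replicate 3 of control HDM the count of members called went from 8 to 5. When the libraries were scaled by median ratios the split over all genes went from 842 up and 1124 down to 1068 up and 877 down, and with quantile normalization to 991 up and 958 down.

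INSIG1, whose protein keeps the SREBP complex in the endoplasmic reticulum and whose gene (chromosome 7, 155297776 to 155310235, plus strand, GENCODE v29) is itself an SREBP target, was at 59.7, 63.0 and 56.3 FPKM in the control HDM libraries and at 78.9, 80.8 and 84.5 FPKM in the LY96 HDM libraries. The groups did not overlap, and the mean was 1.36-fold higher with LY96 siRNA. The log2 difference was 0.44 ± 0.04 (SE, limma, adjusted p = 6.34e-04). The call held under every alternative setting and without any 1 of the 6 HDM libraries.

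The factors themselves differed. SREBF1 was at 22.6, 23.1 and 21.4 FPKM in the control HDM libraries and at 24.8, 25.9 and 25.7 FPKM in the LY96 HDM libraries, which do not overlap. Its log2 difference was 0.18 ± 0.04 (SE, limma, adjusted p = 0.0182), and it lost its call without replicate 3 of control HDM and without replicate 2 or 3 of LY96 HDM, with adjusted p up to 0.0569. SREBF2 was at 78.9, 79.1 and 76.6 FPKM in control HDM and at 75.8, 80.2 and 77.8 FPKM in LY96 HDM. These overlapped, with a log2 difference of -0.0046 and a 95% interval from -0.08 to 0.07. The tables hold 1 value per gene, so the transcript forms of SREBF1 are not separated.

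Among the early steps of the mevalonate pathway no member was called. HMGCS1, the cytosolic HMG-CoA synthase, was at 88.4, 89.7 and 85.4 FPKM in control HDM and at 91.5, 87.6 and 102 FPKM in LY96 HDM, which overlap (log2 difference 0.09, limma, adjusted p = 0.286). ACAT2, which makes acetoacetyl-CoA, was at 122, 126 and 126 FPKM against 127, 131 and 141 FPKM, with every LY96 library above every control library but an adjusted p of 0.16 by limma. MVD, the mevalonate diphosphate decarboxylase, had a log2 difference of -0.19 with an adjusted p of 0.0897 in the same fit, and was called as lower without replicate 3 of LY96 HDM (adjusted p = 0.0282). MVK, the mevalonate kinase, and IDI1, the isopentenyl diphosphate isomerase, had log2 differences of 0.07 and 0.0036. FDPS was at 179, 178 and 176 FPKM against 168, 176 and 181 FPKM and overlapped between the siRNAs, as did FDFT1.

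Beside INSIG1, the sterol members that rose were the enzymes SQLE and LSS, of the steps from squalene to lanosterol, and CYP51A1, which acts on lanosterol. SQLE, the squalene epoxidase, stood at 66.3, 68.8 and 65.9 FPKM in control HDM and at 73.5, 76.6 and 76.4 FPKM in LY96 HDM. LSS, the lanosterol synthase, was at 49.8, 52.6 and 50.0 FPKM against 55.8, 58.2 and 62.8 FPKM. CYP51A1, the lanosterol 14-alpha-demethylase, was at 67.8, 71.1 and 69.4 FPKM against 77.3, 76.9 and 80.1 FPKM. In each of these genes all 3 LY96 libraries lay above all 3 control libraries. The log2 differences were 0.17 ± 0.03 for SQLE (adjusted p = 0.00935), 0.21 ± 0.05 for LSS (adjusted p = 0.0179) and 0.17 ± 0.03 for CYP51A1 (adjusted p = 0.0102; SE, limma). The call of LSS was lost without replicate 1 or replicate 3 of control HDM, without the filter on low values, and with neither trend nor robust moderation in limma (adjusted p up to 0.0592 over all alternatives), and those of SQLE and CYP51A1 held throughout.

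MSMO1, the sterol-C4-methyl oxidase that acts soon after CYP51A1, moved the other way. It was at 97.4, 102 and 96.3 FPKM in control HDM and at 82.0, 80.8 and 89.5 FPKM in LY96 HDM, again without overlap. Its log2 difference was -0.23 ± 0.04 (SE, limma, adjusted p = 0.0102), and the call held under every alternative. The remaining enzymes from lanosterol to cholesterol were not called. NSDHL, the sterol-4-alpha-carboxylate dehydrogenase, was at -0.02 on the log2 scale, HSD17B7 at 0.08, EBP, the delta-8,delta-7 sterol isomerase, at -0.08, SC5D at -0.06 and DHCR7, the 7-dehydrocholesterol reductase, at 0.05. The transport and receptor-associated members STARD4, a sterol carrier, and TMEM97, a membrane protein of the endoplasmic reticulum and lysosome, were at -0.01 and 0.04.

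In the fatty acid branch the desaturases of polyunsaturated fatty acids stood out. FADS1 was at 41.8, 41.5 and 41.5 FPKM in control HDM and at 63.9, 64.4 and 66.4 FPKM in LY96 HDM, so the groups lay far apart beside the spread within either. The log2 difference was 0.63 ± 0.03 (SE, limma, adjusted p = 2.04e-05), and it held under every alternative. FADS2 was at 138, 152 and 137 FPKM against 158, 165 and 173 FPKM, also without overlap. Its log2 difference was 0.22 ± 0.05 (SE, limma, adjusted p = 0.0172), and the call was lost without replicate 1 or 3 of control HDM or replicate 3 of LY96 HDM, and also without the filter on low values and with neither trend nor robust moderation (adjusted p up to 0.0591 over all alternatives).

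The enzymes of saturated fatty acid synthesis were not called. FASN, the fatty acid synthase, was at 114, 117 and 110 FPKM in control HDM and at 109, 113 and 118 FPKM in LY96 HDM, with a log2 difference of -0.0020 and a 95% interval from -0.09 to 0.08. ACLY, the ATP citrate lyase that supplies cytosolic acetyl-CoA, was at 76.1, 76.6 and 76.4 FPKM against 74.4, 72.5 and 79.2 FPKM. SCD was at 190.1, 200.3 and 185 FPKM against 200.1, 198 and 201 FPKM. All 3 overlapped between the siRNAs, and so did ACACA, with a log2 difference of 0.02. The elongases ELOVL5 and ELOVL6 were at -0.01 and 0.09, and LPIN1 at 0.07. ELOVL6 and LPIN1 were higher in every LY96 library than in any control library without passing the test.

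Counted over all members, the LY96 HDM libraries lay wholly above the control HDM libraries for 6 of 20 sterol and 5 of 10 fatty acid genes, beside 15.2% of all genes tested. They lay wholly below for 1 sterol gene, MSMO1, and for no fatty acid gene, beside 21.8% of all genes tested.

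**Figure D2:**
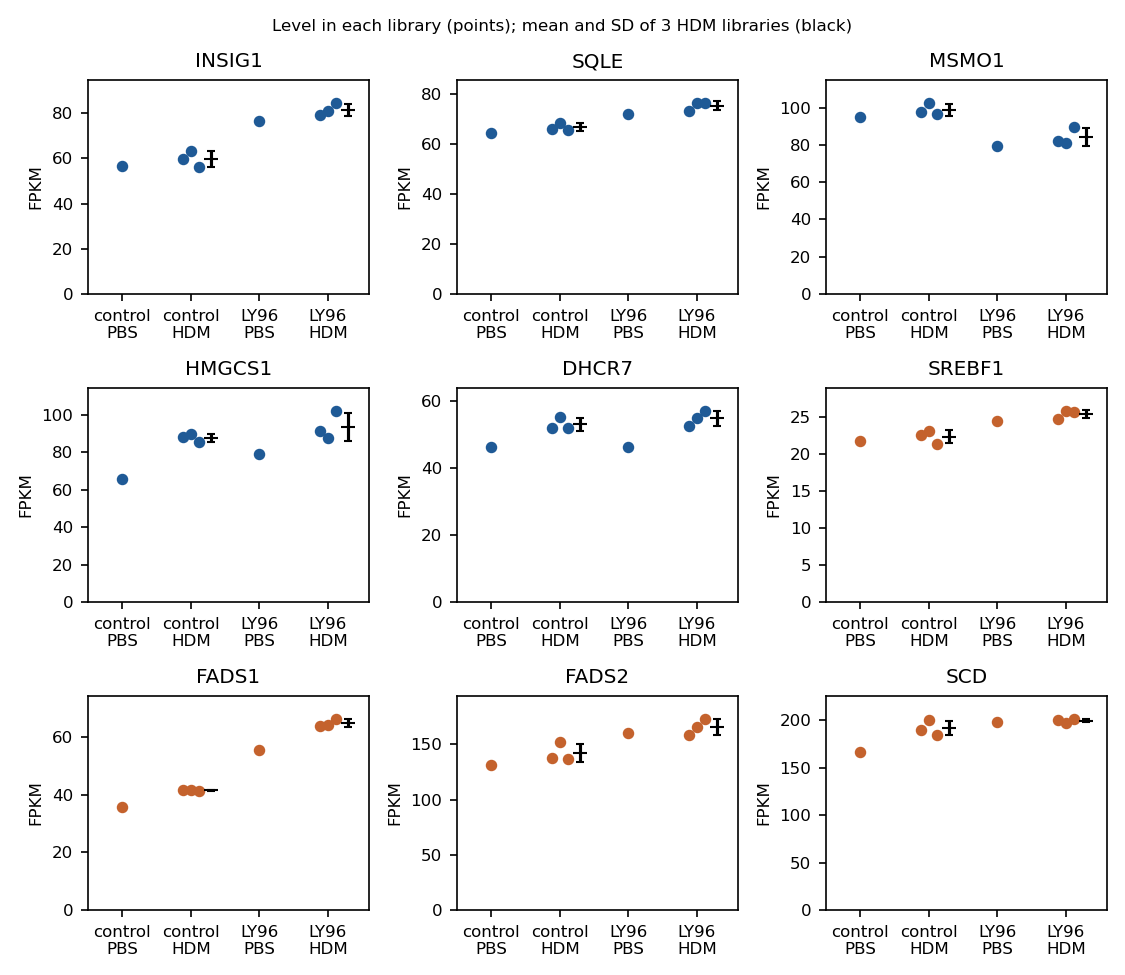
FPKM of 9 members in each library by group (sterol genes blue, fatty acid genes orange), with the mean and SD of the 3 HDM libraries of each siRNA in black and the y axis from 0. FADS1 and INSIG1 separate by siRNA with PBS and with HDM, MSMO1 separates in the other direction, and HMGCS1 is lowest in both PBS libraries.

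The 2 PBS libraries allow the siRNAs to be set side by side without HDM, 1 library against 1 and so with no test. INSIG1 was at 56.6 FPKM with control siRNA and 76.4 FPKM with LY96 siRNA, FADS1 at 35.6 and 55.8 FPKM, and MSMO1 at 94.7 and 79.2 FPKM. SQLE was at 64.5 and 72.2 FPKM, LSS at 47.2 and 52.0 FPKM, CYP51A1 at 62.2 and 71.9 FPKM, FADS2 at 131 and 160 FPKM, and SREBF1 at 21.9 and 24.6 FPKM. All 8 members called under HDM thus had the same sign in the PBS libraries. The share of all genes called under HDM that did so was not counted. The LY96 PBS library was higher for 12 of 20 sterol members and for 9 of 10 fatty acid members, beside 44.3% of all genes tested. The median log2 difference between these libraries was 0.02 for the sterol branch, 0.23 for the fatty acid branch and -0.02 for all genes tested.

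FADS1 and FADS2 lie on opposite strands of chromosome 11, and their neighbours were looked at after their values were seen. In GENCODE v29 FADS1 covers 61799625 to 61829318 on the minus strand and FADS2 covers 61792980 to 61867354 on the plus strand. The gene model of FADS1 thus lies wholly within that of FADS2. They share 29694 bases, with 490 bases of exon in common. FEN1, the flap endonuclease of DNA replication, lies 2381 bases beyond the end of FADS1 in the direction of FADS1 transcription and also shares 49 exon bases with FADS2. FEN1 fell from 69.1 ± 1.00 FPKM in control HDM to 33.5 ± 1.60 FPKM in LY96 HDM (SD, n = 3 each; log2 difference -1.03, limma, adjusted p = 1.29e-05), and was at 76.6 FPKM with control siRNA and 33.4 FPKM with LY96 siRNA in the PBS libraries. FEN1 was lower and FADS1 higher in every LY96 library than in any control library, with PBS and with HDM. TMEM258, a subunit of the oligosaccharyltransferase complex on the far side of FEN1, fell by 0.13 on the log2 scale (limma, adjusted p = 0.0254). FADS3, on the far side of FADS2, was at 0.11 (limma, adjusted p = 0.0824). Whether the counting used strand is not stated, so reads from the shared bases cannot be assigned to 1 gene with certainty, and the part of this in the FADS1 and FADS2 values was not tested.

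**Figure D3:**
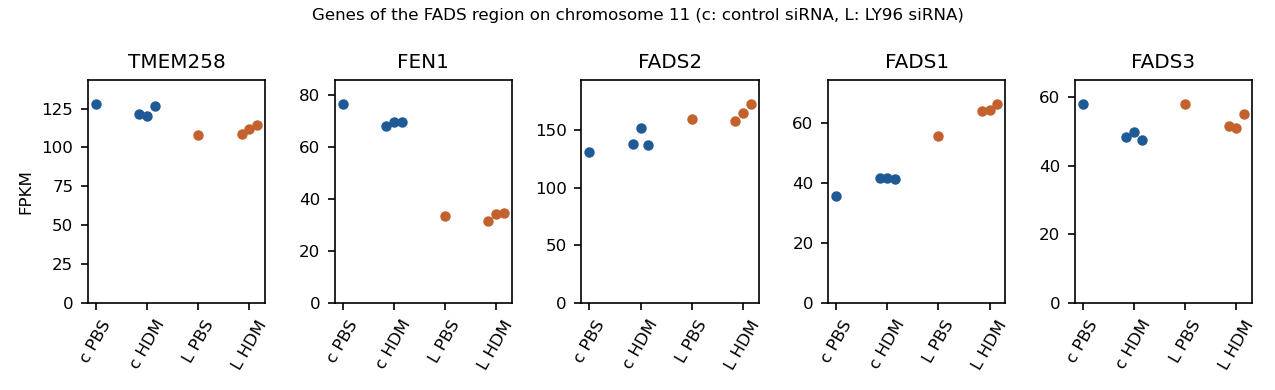
FPKM of 5 genes of the FADS region on chromosome 11 in their order along it, by siRNA (control blue, LY96 orange) and stimulus, each panel with its own axis from 0. FEN1 is at 31.6 to 34.6 FPKM and FADS1 at 55.8 to 66.4 FPKM in the LY96 libraries, against 68.0 to 76.6 FPKM and 35.6 to 41.8 FPKM in the control libraries.

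Other members also share exon bases with neighbouring genes, which were searched among protein-coding genes only. ACAT2 overlaps TCP1 and SOD2, MVK overlaps MMAB, TMEM97 overlaps IFT20 and SREBF1 overlaps RAI1, each on the opposite strand. CYP51A1 shares exon bases with 2 genes on its own strand that carry only clone names. The largest overlaps were 2844 exon bases of CYP51A1 with 1 of those 2 genes and 1141 exon bases of ACAT2 with SOD2. Reads from the shared bases of these genes, too, cannot be assigned with certainty. Pseudogene copies, which HSD17B7 and FDPS are known to have, were not examined.

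The second comparison asks what HDM changed against PBS, taken as the mean of the differences within the siRNAs. HDM raised 6 of 20 sterol members and 2 of 10 fatty acid members, and no member fell (limma, adjusted p under 0.05 over 12604 genes tested). At an unadjusted p under 0.05 there were 16 members higher and 0 lower, beside 12.2% and 9.44% of all genes. The largest rise was that of HMGCS1, and the changes were small, with the largest log2 difference at 0.32, which is 1.25-fold. Over all genes tested 4.86% rose and 3.50% fell. The log2 difference was above 0 in 28 of the 30 members, against 54.6% of all genes tested, and its median was 0.09 in the sterol branch and 0.10 in the fatty acid branch, beside 0.01 over all genes. Each siRNA has 1 PBS library, so its error is that of the HDM libraries by assumption, and all members share those PBS values. The count of members called fell from 8 to 4 without replicate 2 or without replicate 3 of control HDM.

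HMGCS1 (chromosome 5, 43289395 to 43313512, minus strand) stood at 65.9 FPKM in the control PBS library and 79.1 FPKM in the LY96 PBS library, below each of the HDM libraries of the same siRNA given above. The log2 difference was 0.32 ± 0.05 (SE, limma, adjusted p = 0.00668), and the call held under every alternative. DHCR7, which makes cholesterol in the last step of one arm of the pathway, was at 46.2 FPKM in control PBS and 52.1, 55.3 and 52.0 FPKM in control HDM. With LY96 siRNA it was at 46.4 FPKM in PBS and 52.5, 55.1 and 57.1 FPKM in HDM. No HDM library overlapped either PBS library, and the log2 difference was 0.22 ± 0.04 (SE, limma, adjusted p = 0.0122), called under every alternative.

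The other 4 sterol members that rose had smaller and less stable differences. HSD17B7 went from 16.4 FPKM in control PBS to 17.8, 17.6 and 18.4 FPKM in control HDM, and from 16.3 FPKM in LY96 PBS to 19.2, 18.6 and 19.2 FPKM in LY96 HDM. ACAT2 stood at 112 FPKM in control PBS and 120 FPKM in LY96 PBS, FDPS at 167 and 156 FPKM, and CYP51A1 at the PBS levels given above. All HDM libraries of these 4 genes lay above the PBS library of their siRNA. The log2 differences were 0.17 for HSD17B7 (adjusted p = 0.0271), 0.15 for ACAT2 (adjusted p = 0.0469), 0.14 for CYP51A1 (adjusted p = 0.0323) and 0.13 for FDPS (adjusted p = 0.0458; limma). Of 11 alternatives, the call was lost under 4 for HSD17B7, 7 for ACAT2, 5 for CYP51A1 and 8 for FDPS, always with the same direction. Without replicate 3 of control HDM all 4 were lost. The other libraries whose removal ended a call were replicate 1 of LY96 HDM for HSD17B7, replicates 1 and 2 of control HDM and 2 of LY96 HDM for ACAT2 and FDPS, replicate 3 of LY96 HDM for FDPS and CYP51A1, and replicate 2 of control HDM for CYP51A1.

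In the fatty acid branch HDM raised FADS1 and ACLY. FADS1 rose by 0.22 ± 0.03 on the log2 scale (SE, limma, adjusted p = 0.00249) from the PBS levels of 35.6 and 55.8 FPKM, and the call held under every alternative. ACLY was at 64.6 FPKM in control PBS and 70.1 FPKM in LY96 PBS, below every HDM library of the same siRNA, with a log2 difference of 0.17 ± 0.04 (SE, limma, adjusted p = 0.0218). The call of ACLY was lost without replicate 2 of control HDM, without the filter on low values, and with neither trend nor robust moderation (adjusted p up to 0.0735 over all alternatives). FASN stood at 97.3 FPKM in control PBS and 109 FPKM in LY96 PBS, below its HDM libraries, and missed the threshold (log2 difference 0.14, limma, adjusted p = 0.0592). It was called with quantile normalization and without replicate 1 of LY96 HDM (adjusted p down to 0.0431). SCD, at 166 and 198 FPKM in the PBS libraries, missed it as well (log2 difference 0.11, limma, adjusted p = 0.0886), and 1 of its LY96 HDM libraries lay below the LY96 PBS library.

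The regulators were not called for HDM. SREBF1 had a log2 difference of 0.04 with a 95% interval from -0.05 to 0.13, SREBF2, at 74.5 and 75.7 FPKM in the PBS libraries, one of 0.05 with an interval from -0.02 to 0.13, and INSIG1 one of 0.08 with an interval from -0.02 to 0.18. EBP and TMEM97 were the members below 0, at -0.06 and -0.01. Every HDM library lay above the PBS library of its siRNA, in both siRNAs, for 15 of 20 sterol members and 4 of 10 fatty acid members (ACLY, FASN, FADS1 and LPIN1), beside 16.0% of all genes tested. The opposite was seen for no member, beside 12.9% of all genes.

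**Figure D4:**
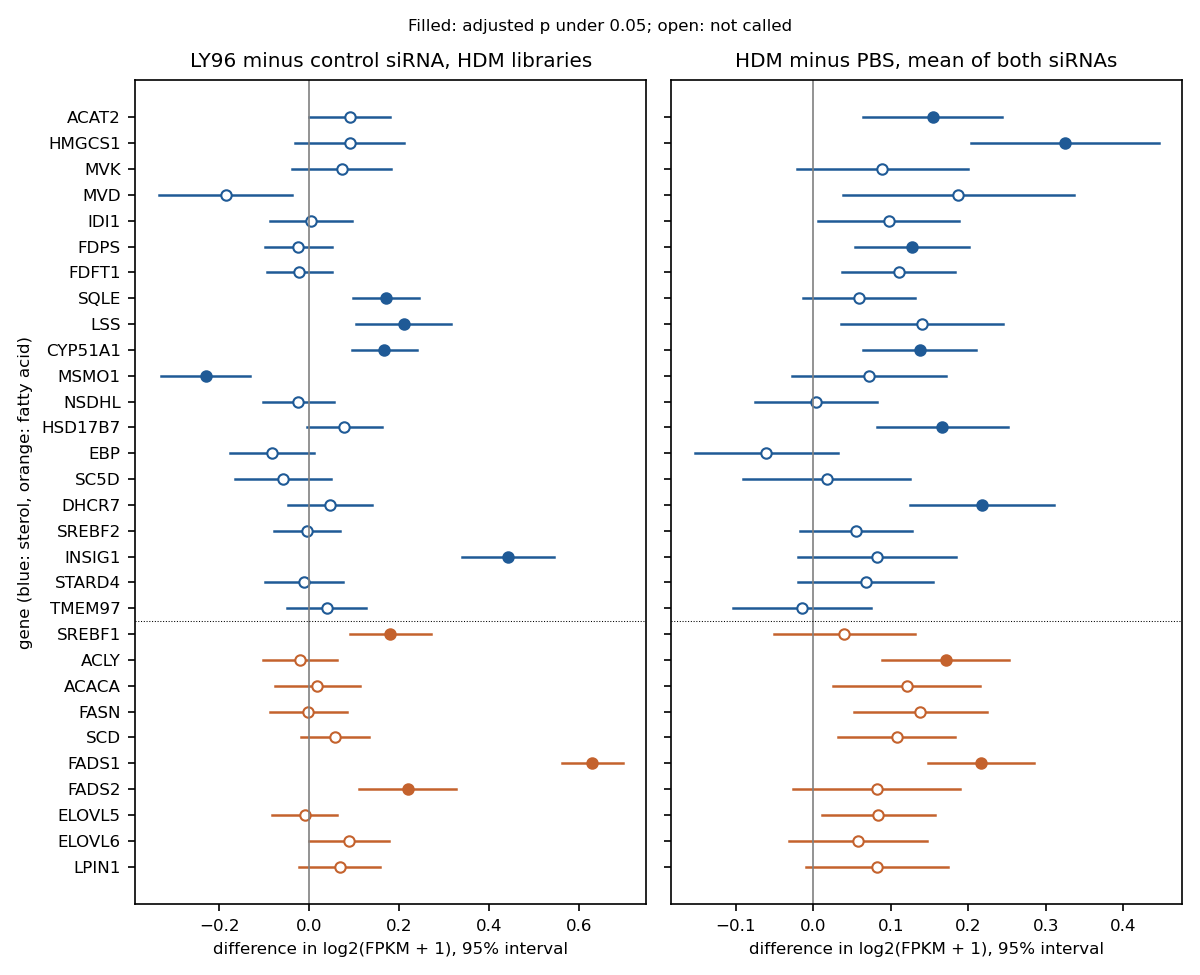
Difference in log2(FPKM + 1) of each member with its 95% interval, for LY96 against control siRNA under HDM (left) and HDM against PBS over both siRNAs (right), filled where the adjusted p is under 0.05. The left panel scatters on both sides of 0 with FADS1 at 0.63 and MSMO1 at -0.23, and in the right panel 28 of 30 members lie above 0.

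Taken within the siRNAs, fewer members passed. With control siRNA HMGCS1 rose by 0.41 ± 0.08 (SE, limma, adjusted p = 0.0277) and FADS1 by 0.22 ± 0.04 (SE, limma, adjusted p = 0.0339), and the other 28 were not called (12 of them higher and 0 lower at an unadjusted p under 0.05), beside 1.55% of all genes that rose and 0.738% that fell. Both calls were lost without any 1 of the 3 control HDM libraries, and that of FADS1 also without replicate 2 of LY96 HDM, with adjusted p up to 0.105 for HMGCS1 and 0.109 for FADS1 over all alternatives. With LY96 siRNA FADS1 was the 1 member called (8 of the other members higher and 0 lower at an unadjusted p under 0.05), with a rise of 0.21 ± 0.04 (SE, limma, adjusted p = 0.0218), beside 2.91% of all genes that rose and 1.98% that fell. The call was lost with neither trend nor robust moderation (adjusted p = 0.0784). Over all genes the shares at an unadjusted p under 0.05 were 9.45% higher and 6.73% lower with control siRNA, and 9.39% higher and 7.28% lower with LY96 siRNA.

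The third comparison asks whether the HDM response differed between the siRNAs, by the interaction term of the same model. No member was called, and 7 of 12604 genes (0.0555%) were. At an unadjusted p under 0.05 there were 2 of 30 members (6.67%), beside 7.58% of all genes tested. Both were fatty acid members with a lower response with LY96 siRNA, 20% of that branch, beside 3.44% of all genes that were lower. In the sterol branch 0 members passed. The values of the 2 members, ACACA and SCD, are given as a description. ACACA was at 13.6 FPKM in control PBS and 16.0, 16.2 and 17.3 FPKM in control HDM, and at 17.0 FPKM in LY96 PBS and 16.6, 16.5 and 17.1 FPKM in LY96 HDM. Its difference in response was -0.28 ± 0.08 (SE, limma, unadjusted p = 0.00877, adjusted p = 0.465). That of SCD was -0.19 ± 0.07 (SE, limma, unadjusted p = 0.0192, adjusted p = 0.552).

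The branches are set side by side here without a test. With control siRNA the median response to HDM was 0.08 in the sterol branch and 0.18 in the fatty acid branch, beside 0.0058 over all genes, and with LY96 siRNA it was 0.09 and 0.05, beside 0.012. The median difference in response was 0.0065 for the sterol branch and -0.14 for the fatty acid branch. It was above 0 for 11 of 20 sterol members and 2 of 10 fatty acid members, beside 50.6% of all genes. ELOVL5, which elongates polyunsaturated fatty acids, and SREBF1 were the fatty acid members above 0, at 0.11 and 0.02. FADS1 had responses of 0.22 and 0.21 with the control and the LY96 siRNA, the closest match of the branch.

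All of these differences in response rest on the same PBS libraries, and their levels bear on them directly. The control PBS library was the lowest of all 8 libraries for 8 of 10 fatty acid members and 10 of 20 sterol members, beside 16.6% of all genes tested. The LY96 PBS library was the lowest for 1 fatty acid and 5 sterol members, beside 17.0% of all genes. With 1 PBS library per siRNA, a low value of that library and a response of the cells cannot be told apart.

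**Figure D5:**
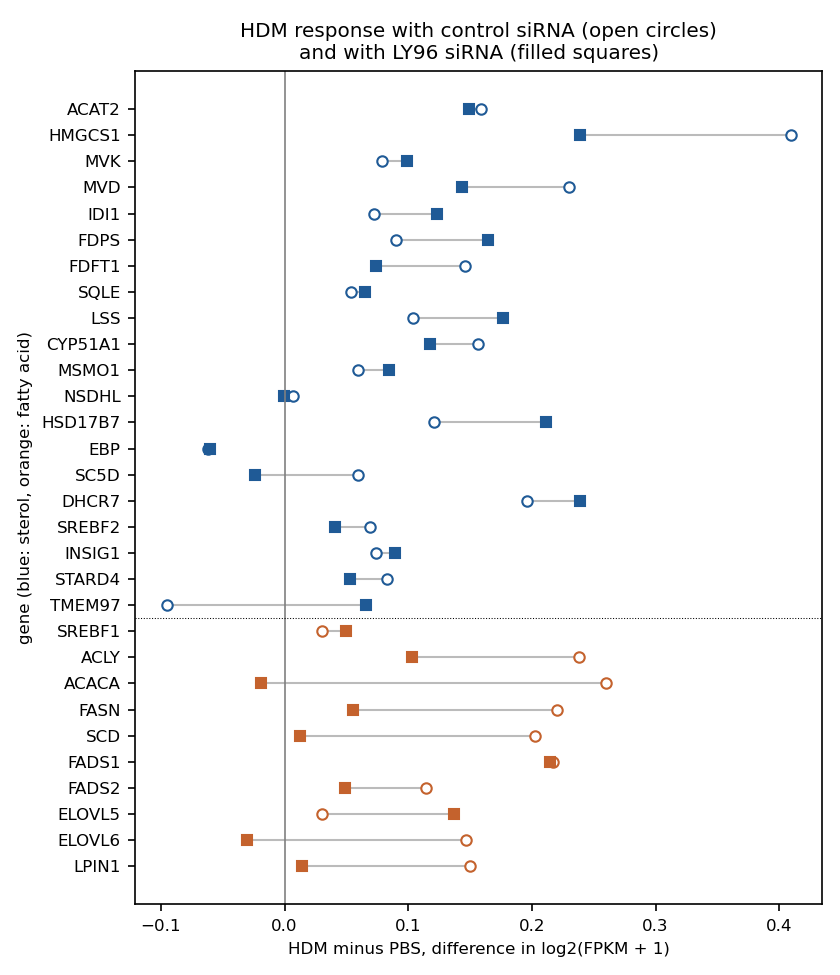
HDM minus PBS difference in log2(FPKM + 1) of each member with control siRNA (open circles) and with LY96 siRNA (filled squares), joined by a grey line. Among fatty acid genes the square lies left of the circle for 8 of 10, with ACACA the widest gap at -0.28, and FADS1 shows no visible gap.

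Genes of the pathway outside the 30 members were taken from lists. Over all genes tested, 6.68% rose and 8.92% fell with LY96 siRNA under HDM, with a median log2 difference of -0.02. With HDM over both siRNAs 4.86% rose and 3.50% fell, with a median of 0.01. Of 13 genes of SREBP processing and its control, 2 rose and 3 fell with LY96 siRNA under HDM (limma, adjusted p under 0.05), with a median log2 difference of 0.0098. At an unadjusted p under 0.05 (limma) 6 were higher and 4 lower, beside 12.8% and 18.4% of all genes. C12orf49, also named SPRING1, which supports processing of SCAP and SREBPs, went from 7.75 ± 0.22 to 9.83 ± 0.45 FPKM (SD, n = 3 each; log2 difference 0.31, limma, adjusted p = 0.00448). SCAP, the escort itself, went from 25.3 ± 0.65 to 23.1 ± 0.40 FPKM (log2 difference -0.13, limma, adjusted p = 0.0406). MBTPS2, the site-2 protease, fell by 0.21 on the log2 scale (limma, adjusted p = 0.0293), and FBXW7, a ubiquitin ligase subunit that marks nuclear SREBPs for degradation, fell by 0.31 (limma, adjusted p = 0.0294). HSP90B1, a chaperone of the endoplasmic reticulum, rose with LY96 siRNA by 0.13 (limma, adjusted p = 0.0323) and with HDM over both siRNAs by 0.21 (limma, adjusted p = 0.00525), the 1 gene of this list called for HDM.

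Of 10 other genes of sterol synthesis and uptake tested, 2 rose and 1, LBR, fell with LY96 siRNA, with a median log2 difference of 0.0063. With HDM 1 rose and 0 fell, with a median of 0.07. At an unadjusted p under 0.05 (limma) 4 were higher and 1 lower with HDM, beside 12.2% and 9.44% of all genes. LBR, a sterol reductase of the nuclear envelope, fell by 0.14 on the log2 scale (limma, adjusted p = 0.0314). Of 12 genes of sterol efflux, LXR signalling and storage tested, 2 rose and 2 fell with LY96 siRNA, with a median of -0.0044. SOAT1, which esterifies cholesterol for storage, went from 6.07 ± 0.09 FPKM in control HDM to 4.05 ± 0.19 FPKM in LY96 HDM (SD, n = 3 each; log2 difference -0.49, limma, adjusted p = 8.62e-04). NR1H2, which encodes LXR-beta, fell by 0.12 (limma, adjusted p = 0.0459), and NPC2, a lysosomal cholesterol carrier, rose by 0.16 (limma, adjusted p = 0.0189). HDM raised 1 gene of this list, the phospholipid acyltransferase LPCAT3, and lowered 2, with a median of 0.08, and NPC2 was 1 of the 2.

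Of 26 other genes of fatty acid and lipid synthesis tested, 1 rose and 5 fell with LY96 siRNA (6.68% and 8.92% of all genes). The median log2 difference was -0.03, beside -0.02 over all genes. The gene that rose was MID1IP1, which encodes a partner of acetyl-CoA carboxylase, at 13.2, 12.8 and 12.1 FPKM in control HDM and 18.6, 18.8 and 18.8 FPKM in LY96 HDM, with 11.9 and 12.2 FPKM in the control and LY96 PBS libraries. Its siRNA difference under HDM was 0.52 ± 0.04 and its HDM difference over both siRNAs 0.34 ± 0.04 (SE, limma, adjusted p = 2.14e-04 and 0.00135). Within the siRNAs the HDM difference was 0.09 with control siRNA (not called, adjusted p = 0.511) and 0.58 with LY96 siRNA (adjusted p = 6.19e-04), and the difference in response of 0.49 was not called (limma, adjusted p = 0.107). DGAT2, which completes triglyceride synthesis, fell by 0.57, FABP5, a fatty acid carrier, by 0.45, ELOVL7, an elongase, by 0.39, and SCD5, the other human stearoyl-CoA desaturase, by 0.23 on the log2 scale (limma, adjusted p from 8.16e-04 to 0.0196). HDM raised 2 genes of this list and lowered 4, with a median of 0.0057. The genes raised over both siRNAs were MID1IP1 and DGAT1, and those lowered ACSL1, ELOVL4, FADS3 and SCD5, so the desaturases SCD5 and FADS3 fell with HDM while FADS1 rose.

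Of 23 genes of fatty acid oxidation tested none was called with LY96 siRNA by limma. At an unadjusted p under 0.05, 1 was higher and 7 were lower, beside 12.8% and 18.4% of all genes. The median log2 difference was -0.07, beside -0.02 over all genes. With HDM 1 fell, ANGPTL4, an inhibitor of lipoprotein lipase, by 0.24 (limma, adjusted p = 0.0232), and the median was -0.0059.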

How the data were processed

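RNA of 8 BEAS-2B libraries was sequenced. Per the submitters' processing notes, HISAT2 2.2.0 was the aligner and hg38 the genome. What program and annotation produced the values is not given in the sources used here, nor is the use of strand in counting. The authors deposited 1 table per library with 1 value per gene symbol. The unit was taken to be FPKM from the deposited values, which are not whole numbers and whose totals differ between libraries. FPKM values were used as deposited, without rescaling, and tested as log2(FPKM + 1), so the fold changes of low genes are understated.

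Genes whose mean over the fitted libraries reached 1 FPKM were tested, two-sided, in R 4.3.3 by limma 3.58.1, which modelled a mean-variance trend with robust moderation. P-values were adjusted by Benjamini-Hochberg over all genes tested, with a threshold of 0.05. The siRNA comparison used the 6 HDM libraries. The HDM comparisons and the difference in response used all 8 libraries with 4 group means and 4 residual degrees of freedom. All 30 members passed the minimum. No 2 libraries held identical values. The fit was checked on simulated data in which the PBS libraries were given the spread of the HDM libraries. That check could not test whether the PBS libraries vary in this way.

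The members and lists were chosen with earlier results of these data known. All members are described, with values by library for those called in any comparison and for SREBF1, SREBF2, INSIG1, FASN and SCD. Of the other lists, up to 4 called genes per list and comparison and SCAP were to be named, and some of these are not reported here by name. Neighbours of FADS1 and the looser promoter motif were added after values were seen. In those lists ERG28 and SPRING1 were matched through RefSeq synonyms. Gene coordinates are from GENCODE v29 (hg38) and promoter sequences from RefSeq (GRCh38.p14).

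Alternatives were a pseudocount of 0.1, no filter on low values, median-ratio scaling, quantile normalization, limma with neither trend nor robust moderation, the replicate number as a block, and leaving out each HDM library in turn.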

Additional observations from a re-analysis of the deposited data

How the results depend on the processing

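Of 19 calls of members over the 5 comparisons, 8 held under every alternative, 11 were lost under at least 1, and none changed direction. Calls were gained by MVD for the siRNA, by FDFT1 and FASN for HDM over both siRNAs, by ACLY with control siRNA, and by FDPS and DHCR7 with LY96 siRNA, each under 1 or 2 alternatives. For the siRNA comparison the count of 8 became 6 without the low-value filter and 6 with neither trend nor robust moderation. The count of members called for HDM against PBS over both siRNAs, 8, became 4 without the low-value filter and 3 with neither trend nor robust moderation. With control siRNA the count of 2 became 1 without the filter, 1 with quantile normalization and 0 with neither trend nor robust moderation, and with LY96 siRNA the count of 1 became 2 with quantile normalization and 0 with neither. The cause was not tested. When each HDM library was left out in turn, the counts ranged from 5 to 8 for the siRNA comparison, 4 to 8 for HDM over both siRNAs, 0 to 3 with control siRNA and 1 to 3 with LY96 siRNA, and stayed at 0 for the difference in response. An arm left with 2 libraries rests on fewer libraries by construction.

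Over main and alternative settings the sterol median stayed between 0.0073 and 0.049 for the siRNA comparison and between 0.074 and 0.11 for HDM, and the fatty acid median between 0.044 and 0.090 and between 0.084 and 0.10. For the difference in response the sterol median ran from -0.022 to 0.027 and the fatty acid median from -0.16 to -0.12.

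Over all genes, the 1966 genes called for the siRNA became 1119 to 1369 with a library left out. For HDM with control siRNA 288 genes became 180 with neither trend nor robust moderation and 187 without replicate 2 of control HDM. For the difference in response 7 genes became 20 without the filter, 14 with quantile normalization, 0 with neither, and 0 to 33 with a library left out.

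The replicate numbers gave no clear sign of pairing, which 3 libraries per group cannot exclude. The deviations of same-numbered control and LY96 HDM libraries from their group means correlated at 0.048, -0.016 and -0.016 across genes, and only the libraries numbered 1 correlated best with their own number. With the number as a block the siRNA comparison gave 1635 genes (716 up and 919 down) and the same count of 8 members, and medians of 0.021 and 0.063 for the sterol and fatty acid branch. No block could be fitted to the HDM comparisons, since each siRNA has 1 PBS library. Read depth is not given in the sources used here, so the counting error of single values is unknown.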
